A study of Mus musculus with 6 samples.

Results

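The genes that copy chromosomal DNA were examined for trimethylation of lysine 4 on histone H3 (H3K4me3), a mark of active promoters, in mouse natural killer (NK) cells with and without the transcription factor Tcf1. The set of 37 genes was drawn up by function, with earlier results of these data known. It covers origin licensing (5 genes), the replicative helicase and its loading and activating partners (12), the polymerases and primase (6), the sliding clamp and its loader (5), single-strand binding and Okazaki fragment joining (4), and nucleotide supply (5). All 37 were found in the deposited peak lists by Entrez and Ensembl identifier, among 20033 protein-coding genes with a known transcription start site (TSS).

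The cells came from spleens of Tcf7+/+ mice of strain B6 (WT) and Tcf7-/- mice of strain B6.129 Tcf7Tm1Cle (KO), and all were grown for 5 days in IL-2 at 500 ng/mL. Tcf7 encodes Tcf1, and the KO allele is carried by every cell of the animal, so effects of strain and of genotype cannot be told apart. The series has 6 libraries (input, Tcf1 antibody and H3K4me3 antibody for each genotype), of which the 4 antibody libraries are used here. How many animals were used, and their age and sex, is not stated in the labels. Y-linked promoters were marked in KO alone, as given below, so sex cannot be told apart from strain and genotype either. With 1 library in each group there is no replicate check on any difference, no p-value is given, and intervals cover counting error only.

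Before each division a cell loads the MCM helicase onto replication origins with the help of the origin recognition complex, Cdc6 and Cdt1. In S phase the helicase is switched on by Cdc45 and the GINS complex, primase starts each new strand, and DNA polymerases held on by the PCNA clamp extend it. Many of these genes are transcribed in late G1 and S phase under control of E2F factors, and IL-2 is known to drive resting NK cells into the cycle. H3K4me3 is laid down around the TSS of transcribed genes and is not itself a measure of RNA.

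The promoter sequences of the genes with the largest and the smallest difference between genotypes are shown first, because the genes of the set differed in the same direction and a shared promoter motif could be looked for. RefSeq promoters (GRCm38.p6, from 250 bases before to 50 after the TSS) were found for 30 of the 37 genes, the exceptions being Mcm4, Gins1, Gins2, Gins4, Prim2, Pole and Rfc2. The first 3 sequences belong to Prim1 (chr10:128014965-128015214, plus strand), Mcm2 (chr6:88898781-88899030, minus strand) and Rrm2 (chr12:24708004-24708253, plus strand), which had the highest KO over WT ratios. The next belong to Mcm3 (chr1:20820313-20820562, minus strand) and Rfc5 (chr5:117389024-117389273, minus strand), the lowest among genes with a promoter sequence. Mcm5 (chr8:75109259-75109508, plus strand) and Mcm6 (chr1:128359706-128359955, minus strand) were added after the data were seen because they hold E2F octamers before the TSS. Each line gives the 250 bases before the TSS, 5′ to 3′ on the strand of the gene. Capitals mark matches to an E2F octamer or to CCAAT on either strand.
Prim1: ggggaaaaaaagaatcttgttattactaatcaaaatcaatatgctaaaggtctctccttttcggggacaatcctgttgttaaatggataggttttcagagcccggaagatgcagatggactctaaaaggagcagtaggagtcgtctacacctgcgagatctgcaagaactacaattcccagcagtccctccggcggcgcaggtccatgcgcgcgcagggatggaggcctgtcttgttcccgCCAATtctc
Mcm2: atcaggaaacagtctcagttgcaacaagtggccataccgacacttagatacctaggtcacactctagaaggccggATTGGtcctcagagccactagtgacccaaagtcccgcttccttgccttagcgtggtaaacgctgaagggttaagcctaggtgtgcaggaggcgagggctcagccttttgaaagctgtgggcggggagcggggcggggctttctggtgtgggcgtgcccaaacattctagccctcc
Rrm2: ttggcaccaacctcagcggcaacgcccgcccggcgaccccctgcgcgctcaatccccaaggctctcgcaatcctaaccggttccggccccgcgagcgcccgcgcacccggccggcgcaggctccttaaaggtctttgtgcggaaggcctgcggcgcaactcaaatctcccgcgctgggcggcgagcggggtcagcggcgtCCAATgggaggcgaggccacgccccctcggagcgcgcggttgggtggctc
Mcm3: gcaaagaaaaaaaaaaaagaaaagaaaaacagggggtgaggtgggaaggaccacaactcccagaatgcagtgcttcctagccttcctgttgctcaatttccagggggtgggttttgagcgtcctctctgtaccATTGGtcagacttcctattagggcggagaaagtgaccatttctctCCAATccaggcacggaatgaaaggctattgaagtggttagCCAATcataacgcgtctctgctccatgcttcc
Rfc5: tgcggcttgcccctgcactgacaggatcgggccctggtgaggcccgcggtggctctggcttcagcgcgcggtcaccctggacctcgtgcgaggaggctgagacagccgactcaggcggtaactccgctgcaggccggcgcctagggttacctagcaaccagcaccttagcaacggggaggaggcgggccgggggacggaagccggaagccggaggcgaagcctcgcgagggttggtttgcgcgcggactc
Mcm5: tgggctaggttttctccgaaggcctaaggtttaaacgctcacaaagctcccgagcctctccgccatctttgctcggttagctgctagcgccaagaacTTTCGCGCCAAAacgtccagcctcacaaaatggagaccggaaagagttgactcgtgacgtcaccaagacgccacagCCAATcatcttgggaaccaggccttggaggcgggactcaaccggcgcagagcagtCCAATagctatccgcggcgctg
Mcm6: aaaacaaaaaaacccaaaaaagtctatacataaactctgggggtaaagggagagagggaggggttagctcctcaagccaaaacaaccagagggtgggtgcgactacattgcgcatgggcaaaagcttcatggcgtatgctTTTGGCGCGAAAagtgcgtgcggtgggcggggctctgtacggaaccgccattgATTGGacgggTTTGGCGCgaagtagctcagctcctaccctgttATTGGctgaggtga

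E2F octamers were common in the set. They were searched on both strands as TTTCCCGC, TTTCGCGC, TTTGCCGC and TTTGGCGC in the 300-base window, with overlapping matches counted as 1. Of the 30 genes with a promoter sequence, 12 (40.0%) held an octamer, against 575 of 17491 protein-coding genes (3.29%) and 456 of 8502 genes (5.36%) with H3K4me3 in both genotypes. These 12 were Orc1, Cdc6, Cdt1, Mcm3, Mcm5, Mcm6, Mcm7, Gins3, Pola1, Pold1, Rfc3 and Lig1. An octamer was also held by 11 of 39 other replication genes (28.2%) and 1 of 20 mitosis genes (5%), lists described below. In Mcm5 and in Mcm6 a pair of octamers on opposite strands overlapped, the first starting at base -153 from the TSS in Mcm5 and at base -110 in Mcm6, as seen in the capitals of the printed lines. Mcm3 holds its octamers after the TSS, at bases 20 and 39, outside the printed stretch.

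The pentamer CCAAT, read by NF-Y, was found in 19 of the 30 promoters (63.3%) against 42.3% of all, 51.3% of other replication genes and 80% of mitosis genes. At least 2 copies were present in 11 (36.7%) against 14.4% of all, 30.8% of other replication genes and 55% of mitosis genes. The hexamers TTTGAA and TTCGAA, of the kind bound by the MuvB complex at mitotic genes, were found in 6 (20%), a share close to that of all genes (20.2%). The Tcf/Lef heptamers CTTTGAT and CTTTGAA, the second of which contains the hexamer TTTGAA, were found in 1 promoter, that of Fen1, at base -124 from its TSS, against 8.78% of all. A match is a description of letters in this window and not a bound site.

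H3K4me3 marked the promoters of all 37 genes in both genotypes, each with 1 peak per library. Marked means that a peak came within 1 kb of a TSS, and 51.3% of the 20033 genes were marked in both. Genes without a RefSeq promoter took their TSS only from Ensembl genes annotated to peaks in these same lists, which favoured a nearby peak in advance. This holds for the genes of the set named above as lacking one, and for part of the 20033. With RefSeq starts alone, all 30 genes of the set that have one were marked in both. The 1850 genes without a known TSS, of which 170 had a peak near an end, are not in the share. Values are tags, the sequenced reads counted in a called peak, which were not scaled to depth. Over the 37 genes the tags ran from 145 to 1110 in WT (median 518) and from 308 to 1612 in KO (median 699). The lowest in WT was Prim1 and the highest Orc6, while in KO they were Prim1 and Rrm2. Peaks spanned a median of 2233 bp in WT and 2273 bp in KO.

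Levels are compared between genes per kb of peak. The 37 promoters were of middling level, with medians of 205.8 tags per kb in WT and 310.1 in KO, against 233.2 and 300.9 over all genes marked in both. Among these genes the median percentile of the set was 39.3 in WT and 52.9 in KO, and the percentile was higher in KO for 32 of the 37 (52.8% of all genes). This comparison of ranks needs no scaling of the libraries. The set was more uniform than genes at large, with an SD of log2 tags per kb of 0.43 in WT and 0.35 in KO, against 0.69 and 0.71. Of the lists described below, mitosis genes had 0.30 and 0.28, and E2F and RB genes 0.37 and 0.39. Other replication genes had 0.59 and 0.56, and housekeeping genes 0.61 and 0.52.

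**Figure D1:**
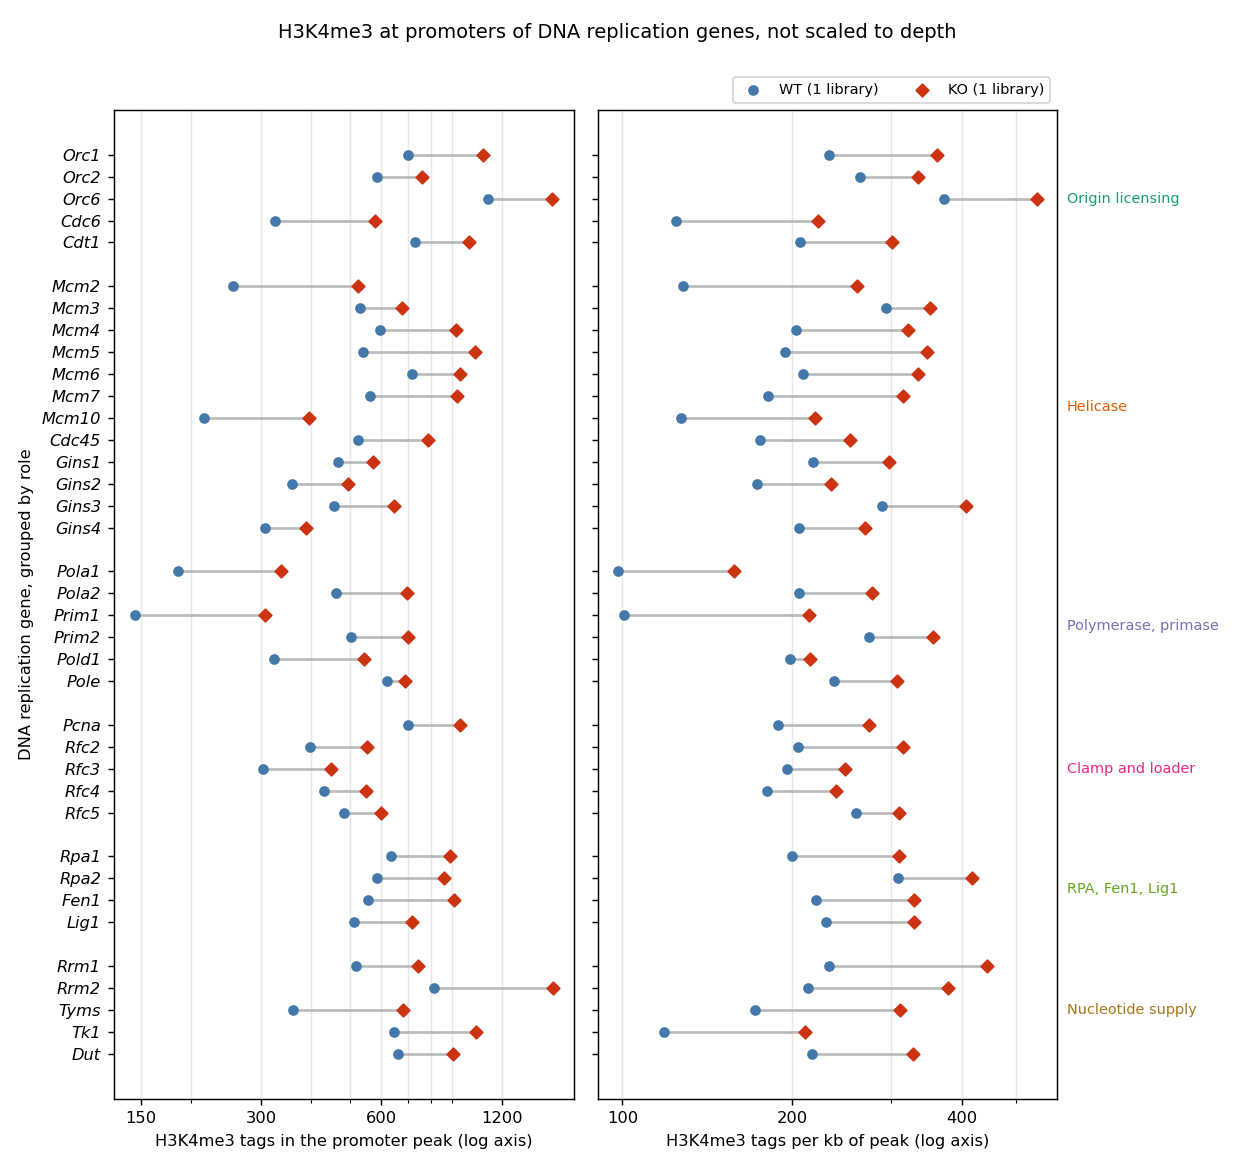
H3K4me3 tags (left) and tags per kb of peak (right) at each of the 37 promoters, on log axes and not scaled to depth, with WT as circles and KO as diamonds (1 library each). The KO value lay to the right of the WT value for every gene on both axes, and the gap was widest for Prim1 and Mcm2.

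Every gene of the set had more tags in KO, by 1.10 times (Pole) to 2.12 times (Prim1). Part of that gap was shared by the whole library, since the median gene marked in both had 1.20 times the tags in KO. Ratios below are therefore log2 of KO over WT after the median of the 10268 genes marked in both (0.26 for tags, 0.32 for tags per kb) was subtracted. Their SD over these genes was 0.29 for tags and 0.27 per kb.

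After centring, 36 of the 37 genes had a ratio above 0, where 50% of all genes do by construction. The median of the set was 0.27, against 0 for all genes, with a range from -0.12 (Pole) to 0.82 (Prim1). For 29 genes the 95% counting interval lay above 0 (19.4% of all genes), and for none below 0 (22.1% of all). A ratio above 0.5, which is 1.41-fold, was seen for 8 genes (1.30% of all), and below -0.5 for 0 (6.15% of all). By tags per kb the median was 0.22, with 34 genes above 0 (50% of all), 8 above 0.5 (1.35% of all) and 0 below -0.5 (5.31% of all). The interval per kb lay above 0 for 24 genes (22.3% of all) and below 0 for 1, Pold1 (22.9% of all). Both measures exceeded 0.5 for 6 genes (Prim1, Mcm2, Rrm2, Mcm5, Tyms and Cdc6), against 0.497% of all.

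The size of this difference depended on the reference. Centred on 20 housekeeping genes instead of the median gene, the median was 0.17 by tags, with 31 genes above 0. Per kb it was 0.024, with 22 above 0, an alternative added after the data were seen. Housekeeping peaks were wide and narrower in KO, with a median of 4112 bp in WT and 3392 bp in KO. Whether more cells carry the mark or each cell carries more of it cannot be told apart in bulk chromatin.

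**Figure D2:**
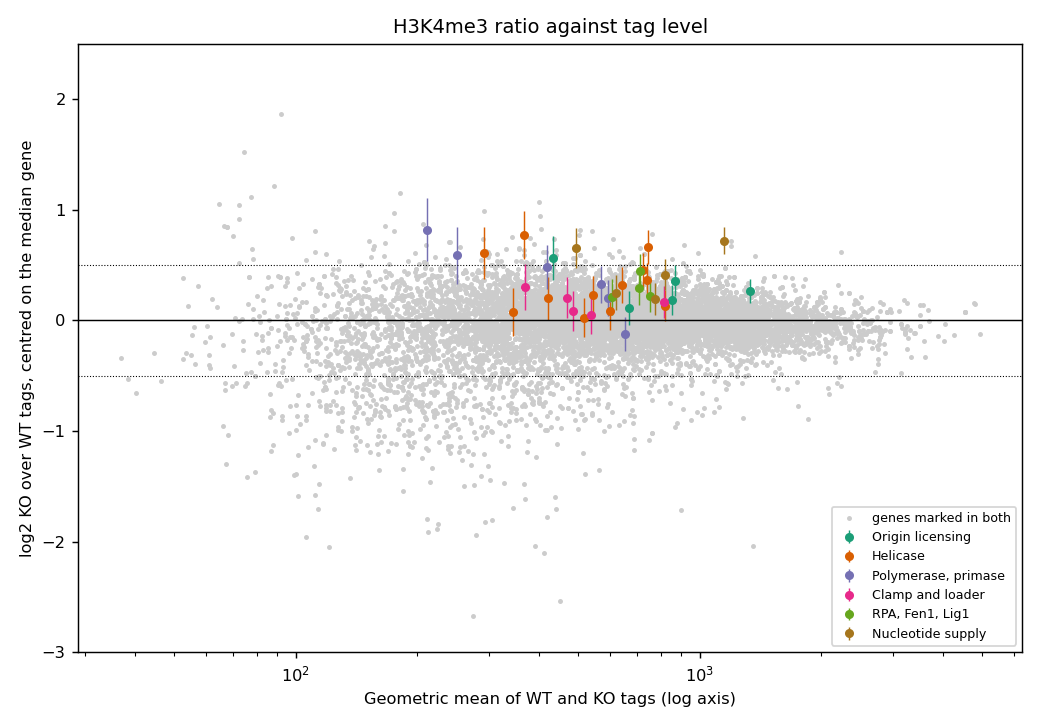
Centred log2 ratio of KO over WT tags against the geometric mean of the tags (log axis), with 1 grey point per gene marked in both and the 37 replication genes in colour by role. Bars are 95% counting intervals, dotted lines stand at 0.5 and -0.5, and 36 of the 37 coloured points lie above 0.

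The genes of the set were spread over the range of tag levels. When genes marked in both were divided into 4 equal bins of 2567 by mean log2 tags, the bins from lowest to highest held 6, 13, 16 and 2 of the 37. The medians of the set there were 0.60, 0.21, 0.27 and 0.49, against -0.07, 0.05, 0.02 and -0.03 for all genes of the same bins. In each of the 4 bins the median of the set was thus above that of all genes at that level, although the top bin rests on Orc6 and Rrm2 alone. Across the 37 genes, which share both libraries, the ratio had a Spearman rho of -0.13 with mean log2 tags. In the lowest bin 4 of the 6 genes of the set exceeded 0.5, where 3.04% of all genes of that bin did.

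Origin licensing was the first role examined. Orc1, Orc2 and Orc6 encode subunits of the origin recognition complex, Cdc6 is the ATPase that loads MCM with it, and Cdt1 escorts MCM to the origin. Cdc6 had 325 tags in WT and 578 in KO, over peaks of 2612 and 2595 bp (124.4 and 222.7 tags per kb). Its ratio of 0.57 (95% counting interval 0.37 to 0.76) and its ratio per kb of 0.52 were the highest of the 5, in a region at chr11:98907409-98910031 over the start of the gene. Orc6 carried the most mark per kb of the whole set, with 372.7 tags per kb in WT and 543.0 in KO, and 1110 and 1605 tags. Its ratio was 0.27 (0.16 to 0.38). The region of Orc6 (chr8:85298312-85301305) also holds the TSS of Vps35, and the summit lay at -362 bp from the Orc6 start in WT.

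Orc1 had 699 tags in WT and 1078 in KO, a ratio of 0.36. Its region also holds the TSS of Prpf38a, so the mark of the pair cannot be told apart by tags. Cdt1 had 728 and 995 tags (0.19), and Orc2 had 587 and 761 (0.11). The interval of Orc2 spanned 0 (-0.05 to 0.26), while those of the other 4 licensing genes lay above it. Within the origin recognition complex the 3 ratios thus ran from 0.11 to 0.36, and the lowest did not differ from 0 beyond counting error.

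Mcm2 to Mcm7 encode the 6 subunits of the helicase ring, which holds 1 copy of each, and their promoters differed. Mcm2 had 256 tags in WT and 526 in KO, over peaks of 2001 and 2016 bp, or 127.9 and 260.9 tags per kb. The ratio was 0.77 (0.56 to 0.99) and 0.71 per kb, with peaks of nearly the same width (region chr6:88896915-88899126, minus strand). With a promoter window of 2.5 kb the ratio of Mcm2 came to 0.19, because a separate region at the TSS of Tpra1 (681 tags in WT, 760 in KO) was then added. Mcm5 had 540 and 1028 tags and 194.5 and 347.6 tags per kb. Its ratio was 0.66 (0.51 to 0.81), and 0.52 per kb (region chr8:75108440-75111516, plus strand).

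Mcm7 had 564 tags in WT and 929 in KO, a ratio of 0.46, and Mcm4 had 596 and 923, a ratio of 0.37. Both sit in regions shared with a neighbouring start, of Ap4m1 for Mcm7 and of Prkdc for Mcm4, so the mark of the pairs cannot be told apart by tags. Mcm6 had 715 and 943 tags over 3414 bp in WT and 2823 bp in KO. Its ratio was 0.13 by tags (-0.01 to 0.27) and 0.35 per kb, since the KO peak was shorter downstream. Mcm3 had 532 and 676 tags, with ratios of 0.08 (-0.08 to 0.24) and -0.06 per kb. The ring genes thus ran from 0.08 to 0.77 by tags. The intervals of Mcm2 and Mcm5 did not overlap those of Mcm3 and Mcm6 by tags, whereas per kb that of Mcm6 (0.21 to 0.49) overlapped both.

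The partners of the ring followed a similar range. Mcm10, which helps switch on the helicase, had 216 tags in WT and 396 in KO. Its ratio was 0.61 (0.37 to 0.85), with 127.2 and 219.9 tags per kb (ratio 0.47). Cdc45, which joins the ring to form the active helicase, had 524 and 786 tags, a ratio of 0.32, in a region shared with Ufd1. The 4 GINS genes, whose products complete that helicase, all lay below 0.25. Gins3 had 458 and 645 tags (0.23), Gins2 had 359 and 495 (0.20), Gins4 had 307 and 389 (0.08) and Gins1 had 468 and 572 (0.02). The intervals of Gins1 and Gins4 spanned 0 by tags, and that of Gins2 also did per kb. The region of Gins1 lies at its Ensembl start and holds the TSS of Abhd12, whereas the RefSeq gene begins further downstream, at 150909556 on chromosome 2. A separate region there held 132 tags in WT and 182 in KO, a ratio of 0.20 (-0.12 to 0.52), so Gins1 spanned 0 at either start.

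The polymerase and primase genes held both ends of the range. Prim1, the catalytic primase subunit, had 145 tags in WT and 308 in KO over peaks of 1438 bp in each. The level was 100.8 tags per kb in WT and 214.2 in KO, a ratio of 0.82 (0.54 to 1.11) by tags and 0.77 per kb (region chr10:128014706-128016260, plus strand). Its partner Prim2, the large primase subunit, had 505 and 699 tags, a ratio of 0.20 (0.04 to 0.37) and 0.05 per kb. Prim1 was below Prim2 in both libraries, and the gap was smaller in KO.

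Pola1, the catalytic subunit of polymerase alpha, had 186 tags in WT and 336 in KO, a ratio of 0.59 (0.33 to 0.85) and 0.36 per kb. It had the lowest level of the set, with 98.4 tags per kb in WT and 157.5 in KO, and is its only X-linked gene. Genes on the X chromosome had a median ratio of 0.07 by tags and 0.10 per kb, and 305 of them were marked in both. Pola2, the regulatory subunit, had 463 and 697 tags, ratios of 0.33 by tags and 0.11 per kb.

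Pold1 and Pole encode the catalytic subunits of polymerases delta and epsilon, which copy most of the genome. Pold1 had 323 tags in WT over 1627 bp and 544 in KO over 2525 bp. By tags the ratio was 0.49 (0.29 to 0.69), but per kb it was -0.20 (-0.40 to -0.0045), from 198.5 and 215.4 tags per kb. The direction at Pold1 thus turned on the wider KO peak, the largest relative change of width in the set. Pole had 622 and 687 tags, a ratio of -0.12 (-0.28 to 0.03) by tags and 0.05 per kb. Its region also holds the TSS of Pxmp2, and its summit lay at -257 bp from the Pole start in WT and at 252 bp in KO.

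**Figure D3:**
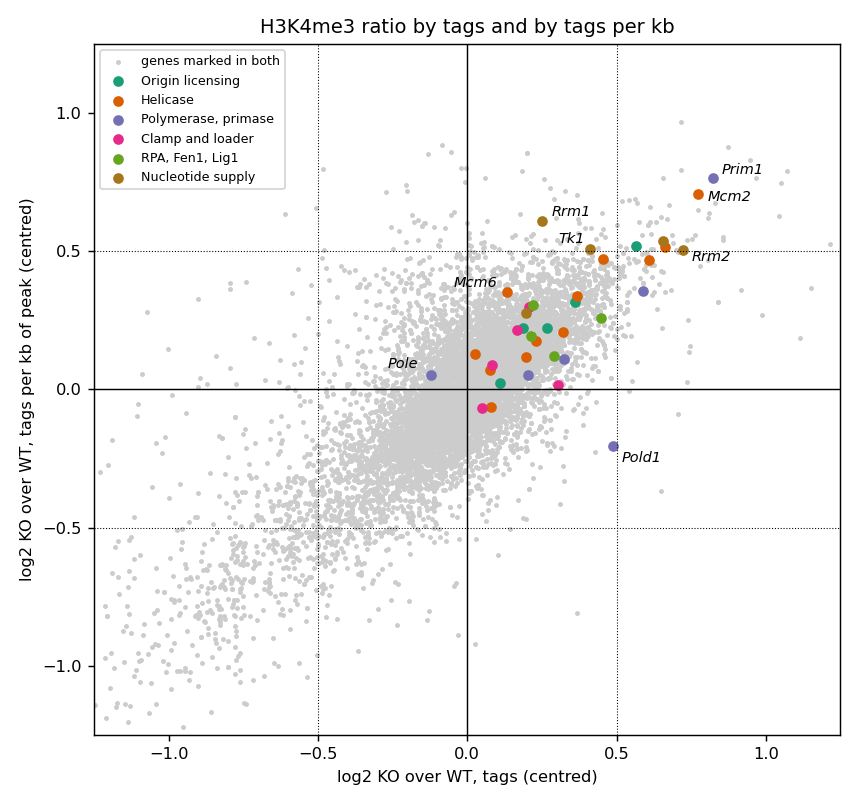
Centred log2 KO over WT ratio per kb of peak against the ratio by tags, for genes marked in both (grey, points beyond the axes not drawn) and the 37 replication genes (colour by role). Points in the upper right corner beyond the dotted lines at 0.5 exceed it on both measures, Pold1 lies below 0 per kb at 0.49 by tags, and Rrm1 lies at 0.61 per kb and 0.25 by tags.

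The clamp and its loader had the lowest median of the 6 roles by tags, while per kb that of the polymerases and primase was lower (0.08). Pcna encodes the ring that holds polymerases on DNA and had 702 tags in WT and 947 in KO, a ratio of 0.17 (0.03 to 0.31), and 0.21 per kb. Rfc2, Rfc3, Rfc4 and Rfc5 encode small subunits of replication factor C, which opens and loads that ring. Rfc3 had 303 and 449 tags (0.30) and Rfc2 had 398 and 552 (0.21). Rfc4 had 431 and 549 (0.08), and Rfc5 had 483 and 600 (0.05). The intervals of Rfc4 and Rfc5 spanned 0 by tags, and per kb Rfc3 came to 0.02 and Rfc5 to -0.07. No gene of the 5 exceeded 0.5 on either measure, and their median was 0.17 by tags and 0.09 per kb.

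The genes for strand protection and Okazaki fragment joining lay closely together. Rpa1 and Rpa2, subunits of the single-strand binding protein RPA, had 636 and 891 tags and 584 and 859 tags in WT and KO, ratios of 0.22 and 0.29. Fen1, the nuclease that trims flaps between fragments, had 557 and 912 tags, a ratio of 0.45 (0.29 to 0.60) and 0.26 per kb. Lig1, the ligase that seals the fragments, had 514 and 716 tags, a ratio of 0.21. All 4 intervals lay above 0 by tags and 3 of 4 per kb, where that of Rpa2 spanned 0 (-0.03 to 0.27). Of the 4 genes, 3 share their region with another start, Rpa1 with Smyd4, Fen1 with Tmem258 and Lig1 with Zswim9.

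Nucleotide supply had the highest median per kb of the 6 roles, 0.51, and a median of 0.41 by tags, like the polymerases and primase. Rrm2, the small and cell-cycle-regulated subunit of ribonucleotide reductase, had 813 tags in WT and 1612 in KO over peaks of 3805 and 4256 bp (213.7 and 378.8 tags per kb). Its ratio was 0.72 (0.60 to 0.84), and 0.50 per kb (region chr12:24706265-24710520, plus strand). Rrm1, the large subunit, had 518 and 741 tags over 2229 bp in WT and 1673 bp in KO. Its ratio was 0.25 (0.09 to 0.41) by tags but 0.61 per kb, from 232.4 and 442.9 tags per kb. Rrm2 was thus above Rrm1 by tags and below it per kb, with a KO peak that was narrower than WT at Rrm1 and wider at Rrm2.

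Tyms, thymidylate synthase, had 360 tags in WT and 681 in KO, ratios of 0.65 (0.47 to 0.84) and 0.54 per kb (171.7 and 311.1 tags per kb). Tk1, the thymidine kinase of S phase cells, had 647 and 1035 tags over the widest peaks of the set, 5455 bp in WT and 4909 bp in KO. Its ratios were 0.41 (0.27 to 0.55) and 0.51 per kb, and its region also holds the TSS of Afmid. Dut, the dUTPase that keeps uracil out of DNA, had 659 and 908 tags, ratios of 0.20 and 0.27 per kb. All 5 intervals of this role lay above 0 on both measures.

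Peak width differed little between genotypes at most of the 37 genes, as at most genes marked in both. For 35 of the 37 genes the KO width was within 20% of the WT width (90.4% of all genes marked in both), with Pold1 wider and Rrm1 narrower in KO. Peaks reached a median of 886 bp upstream and 1378 bp downstream of the TSS in WT, and 881 and 1519 bp in KO. Where a gene has several starts, the start nearest the middle of the region was used. Downstream was the longer side for 28 genes in WT and 29 in KO. The summit lay a median of 222 bp downstream of the TSS in WT and 217 bp in KO, and for 35 genes the summits of the libraries were within 200 bp of each other. The exceptions were Pole and Prim2, whose summit lay at -332 bp in WT and 178 bp in KO. For sides and summits the share over all genes was not counted.

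**Figure D4:**
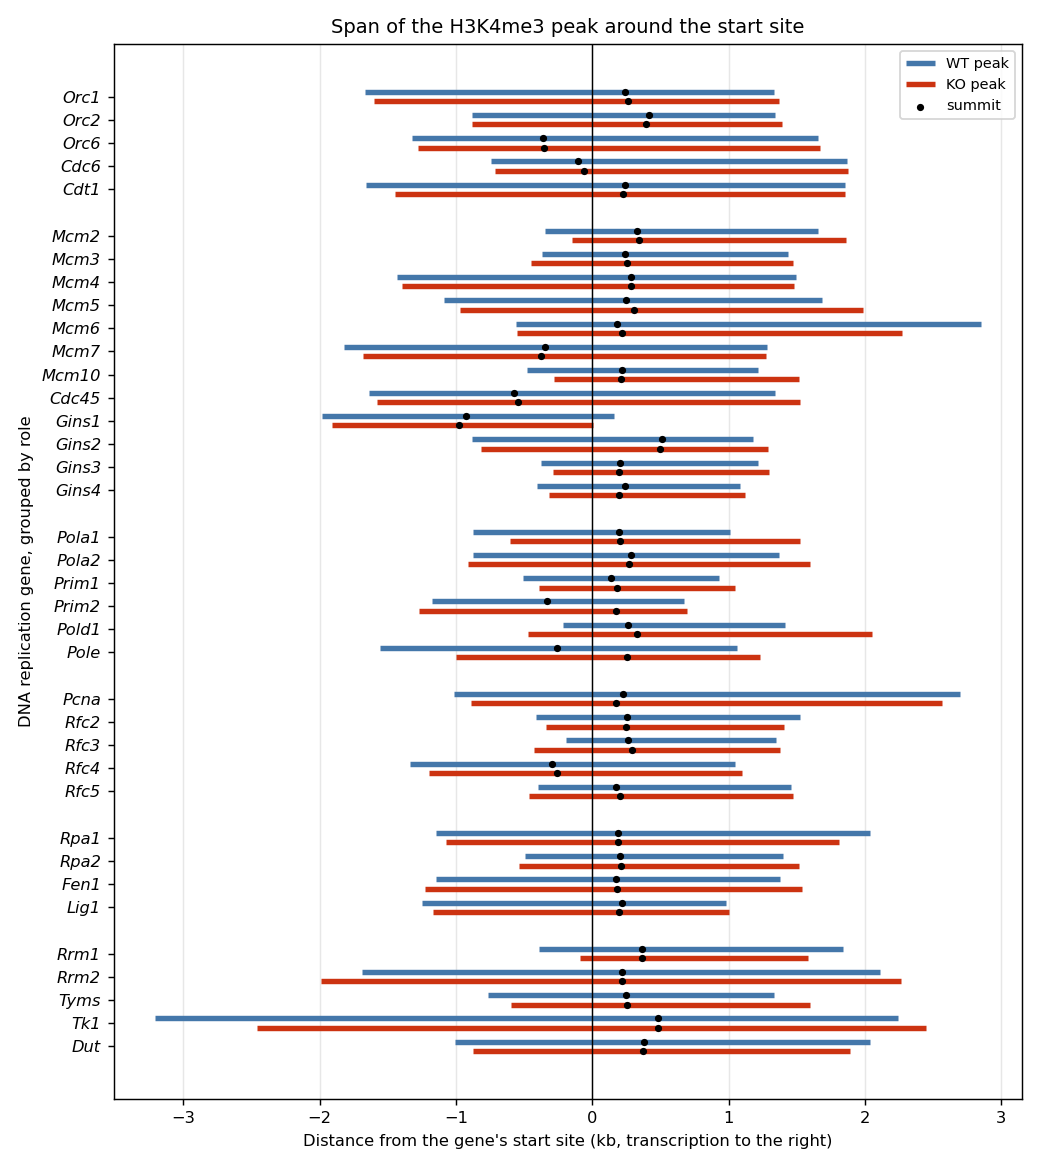
Span of the H3K4me3 peak around the TSS of each gene (distance in kb, transcription to the right), with WT above KO and the summit as a black dot. Spans of the libraries nearly coincide for most genes, while Pold1 extends further downstream in KO and Rrm1, Mcm6 and Tk1 are shorter in KO.

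Of the 37 genes, 11 had the TSS of another protein-coding gene in their region, as did 2326 of the 10268 genes marked in both. The median ratio of the 11 was 0.32, and that of the 26 without such a neighbour was 0.24, all 26 above 0. Over all genes marked in both, the medians were 0.06 with such a neighbour and -0.02 without. Genes with and without an E2F octamer had similar ratios within the set. The 12 with an octamer had a median of 0.33 (range 0.08 to 0.66) and the 18 without had 0.31 (0.05 to 0.82). Neither Prim1, Mcm2 nor Rrm2, the 3 highest, held an octamer in the window, and Mcm3, among the lowest, held 2. Only exact octamers were searched, and the part of E2F factors in the ratios was not tested.

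The wider replication pathway was represented by 46 other genes, listed by function. Like the lists that follow, it was chosen with earlier results of these data known. Of these, 45 were marked in both, and the TSS of the remaining gene, Rnaseh2b, was unknown. Their median ratio was 0.18 by tags and 0.12 per kb, with 38 and 32 above 0. By tags 1 gene exceeded 0.5, Shmt1, which makes one-carbon units for thymidylate synthesis, with 113 tags in WT and 246 in KO (0.86 by tags and 0.55 per kb). None lay below -0.5, and the lowest was Pold4, a small subunit of polymerase delta, with 194 tags in each library (-0.26). These genes thus lay between the 37 and all genes by their median, and no test of that difference is possible here.

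Mitosis genes had a higher median. All 25 were marked in both, with a median of 0.44 by tags and 0.43 per kb, 25 above 0 on both measures and 8 above 0.5 by tags. They ran from Ccna2, which encodes cyclin A, with 866 tags in WT and 1144 in KO (0.14), to Cdk1, the mitotic kinase, with 658 and 1271 (0.68). E2F and RB family genes with their cyclins and kinases had a median of 0.02, with 13 of 22 above 0. They ran from E2f5 (-0.24, 524 and 532 tags) to E2f7 (0.43, 585 and 950 tags). Housekeeping genes had medians of 0.10 by tags and 0.20 per kb, from Pgk1 (-0.47, 596 and 516 tags) to Gusb (0.40, 355 and 562 tags). All these comparisons use the same pair of libraries.

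**Figure D5:**
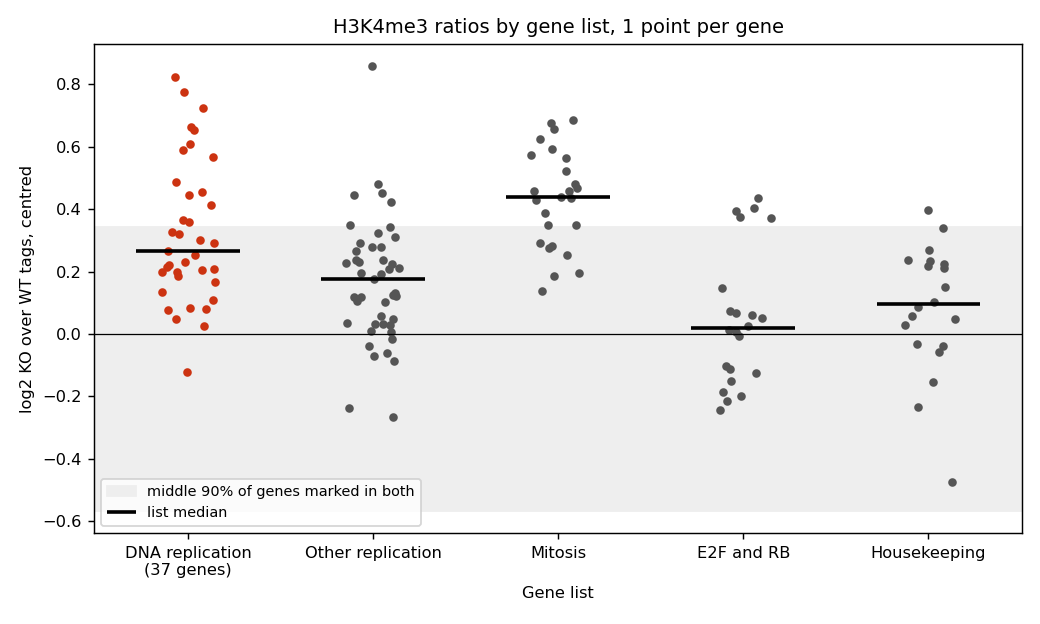
Centred log2 ratio of KO over WT tags for each gene of 5 lists, with the list median as a bar and the middle 90% of genes marked in both (-0.57 to 0.34) as a grey band. Medians are 0.27 for the 37 replication genes, 0.18 for other replication genes, 0.44 for mitosis, 0.02 for E2F and RB genes and 0.10 for housekeeping genes.

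The Tcf1 lists were searched around the same genes. A Tcf1 peak called in WT alone lay in or within 50 kb of 3 of the 37 genes (3.87% of all genes). It lay 1.74 kb from Cdt1 (27 tags, score 55.2), 25.8 kb from Rrm1 (20 tags) and 48.5 kb from Mcm10 (33 tags). Scores are the authors' own, a log10 p-value from MACS times -10. No such peak had a score of 100 or more, and their false discovery rates in the authors' lists were 27.3%, 17.7% and 18.1%. Peaks of the Tcf1 antibody called in KO alone lay near 4 genes (Orc6, Mcm3, Gins3 and Tyms, 20.2% of all genes). They held 11 to 15 tags, with false discovery rates of 100%, 100%, 77.2% and 71.8% in that order. The KO cells lack Tcf1, so these peaks are not read as Tcf1 binding. A peak called in both lay 45.9 kb from Prim2 (0.576% of all genes), with a false discovery rate of 27.6% in the WT list. No Tcf1 peak was called at any of the 37 promoters, from lists of 866 peaks in WT and 5139 in KO. The share of all promoters with such a peak was not counted.

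The cell type was checked on marker promoters. All 8 NK markers were marked in both genotypes, among them Ncr1 and Eomes. Of T cell markers 0 of 8 were marked in both and 2 in WT alone, Cd3d with 35 tags and Cd3e with 64. Of B cell markers 0 of 6 were marked in either library. Of myeloid markers 1 of 7 was marked, in WT alone (Cd14, 95 tags). Of erythroid markers Klf1 was marked in both (264 and 227 tags) and Epor in WT alone (56 tags). Summed tags of these markers were 99 in WT and 0 in KO for T cells, 95 and 0 for myeloid cells, and 320 and 227 for erythroid cells. Tags were counted in called peaks only, so a sum of 0 means that no peak was called. Among all 20033 genes, 1267 had a promoter peak only in the WT list, against 31 only in the KO list. A peak missing from the KO list was thus not particular to these markers. No peak was called in either library for 6 of 8 T cell, 6 of 6 B cell, 6 of 7 myeloid and 5 of 7 erythroid markers. The part of other cells in the replication gene result was not tested. The Y-linked genes Ddx3y, Eif2s3y, Uty and Kdm5d were marked in KO alone, and the part of the animals' sex was not tested.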

How the data were processed

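Per the submitters' processing notes, MACS 1.4 and Bowtie2 2.1.0 were used, and 3 builds (GRCm38, mm10, GRCh37) are listed without their roles. Settings and control tracks are not stated there. Peaks were called per library. The deposited tags are raw counts per peak, not scaled to depth, so sequencing depth is unknown. The deposited score is -10 times log10 of the p-value, per the file headers. The deposited fold enrichment is a ratio over the peak caller's background, and the deposited FDR is in percent. The WT and KO H3K4me3 lists held 13771 and 11074 distinct peaks with 6635272 and 7507763 tags over 30354 and 25124 kb.

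Rows were reduced to distinct peaks, and starts, which count from 0, were converted to count from 1. Start sites came from RefSeq promoters (GRCm38.p6) and from the Ensembl features of the lists. Of 9567 such features, 92.7% had a RefSeq start of the same gene within 1 kb. Of 21883 protein-coding genes, 1850 without a known start were left out. Overlapping WT and KO peaks (at least 1 bp) were merged into regions. Tags and widths of the peaks in regions within 1 kb of a start were summed per library, and log2 ratios had the median over all genes marked in both subtracted. Tags were summed over separately called peaks, so widths and tags per kb stand beside them. Counting intervals (95%) treat tags as Poisson, and whether PCR copies were removed is not stated.

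Genes and lists were chosen with earlier results of these data known. Values in full were given for genes past 0.5 in size on either measure, the 5 lowest and those whose sign differs between measures. Other lists are named by their highest and lowest gene, and other replication genes by 0.5 on both measures. Promoters printed are the 3 highest and 2 lowest, plus 2 added. Alternatives were unmerged peaks, windows of 0 and 2.5 kb, a score minimum of 100, an FDR limit of 1%, other centrings, autosomes alone, and regions without a neighbouring start. The code was tested on simulated data. Analyses ran in Python 3.11.15 (pandas 2.3.3, numpy 2.4.6), with plots from matplotlib 3.10.9.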

Additional observations from a re-analysis of the deposited data

How the results depend on the processing

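Over 12 alternatives by tags, the median ratio of the set stayed between 0.17 (centred on housekeeping genes) and 0.35 (scaled by total tags in peaks). The number of genes above 0.5 stayed between 6 and 11 under the same settings, and that below -0.5 was 0 in each. Per kb of peak, 8 of 9 alternatives gave medians from 0.19 to 0.26, and centring on housekeeping genes gave 0.024, while those genes had a median of 0.20 per kb. That alternative, the use of RefSeq starts alone (30 genes, median 0.31 by tags) and leaving out shared regions per kb (26 genes, 0.22) were chosen after the data were seen. Single genes kept to within their counting interval by tags in all alternatives except the window of 2.5 kb (Mcm2) and tags per kb (9 genes). Per kb, centring on housekeeping genes moved 30 of the 37 beyond their interval, and the window of 2.5 kb moved 1. Tcf1 peaks called in WT alone lay near 1 gene within 10 kb and near 0 with scores of at least 100, against 3 within 50 kb and 3 within 100 kb. No paired analysis was possible because each group held 1 library. Without replicates or a known depth, a ratio is a difference between these libraries.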

Other observations

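The authors' fold enrichment, which compares each peak with the local background, gives a reading of these promoters within each list. In the WT list the 37 replication genes had a median fold of 40.4, against 43.6 over all genes marked in both libraries. In the KO list their median was 23.6, against 20.03. By its median the set thus stood a little below the typical marked gene in WT and above it in KO. Of the 6 roles, the polymerases and primase (15.3) and the clamp and loader (19.6) lay below 20.03 in KO, and the other roles above it. Fold over all genes marked in both was lower in KO, and the part of that difference in the tag ratios was not tested. The lowest fold in WT belonged to Pola1 (10.8) and the highest to Gins3 (61.7), and in KO they belonged to Rfc4 (11.8) and Mcm3 (33.3).

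Paired subunits of the same enzyme were marked unequally. Per kb of peak in WT, Prim1 carried 100.8 tags and Prim2 273.9, and Pola1 carried 98.4 and Pola2 206.1. In KO these were 214.2 and 355.0, and 157.5 and 277.5. Rrm1 and Rrm2, with 232.4 and 213.7 tags per kb in WT, were close to each other there, and came to 442.9 and 378.8 in KO.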
